A study of Homo sapiens with 18 samples.

Results

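The 34 genes described here act in homologous recombination and in the Fanconi anemia pathway, and were followed in a B cell lymphoma line treated with the PI3K inhibitor copanlisib. They come from a list made for this work from general knowledge of these pathways. All 34 were found among the 60483 gene identifiers of the count tables, of which 35239 had a read, and all 34 were among the 16122 genes with enough reads to be tested. Homologous recombination repairs broken DNA and stalled replication forks by copying from the sister chromatid. The MRE11-RAD50-NBN complex and RBBP8 (CtIP) start the trimming of the broken ends, BRCA1, PALB2 and BRCA2 load the recombinase onto the single-stranded DNA, and its paralogs and the RAD54 proteins help it to find and copy the matching sequence. The Fanconi core complex attaches ubiquitin to FANCD2 and FANCI at crosslinks between the DNA strands, and BLM with RMI1 and RMI2, and SLX4 with its nucleases, take apart the joined molecules. ATM and ATR are the kinases that signal breaks and stalled forks. Transcripts of many of these genes are most abundant in cells that prepare for or pass through DNA replication.

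The line was HAIR-M, which the labels call MZL (marginal zone lymphoma), and copanlisib inhibits class I PI3K enzymes. Cells received DMSO, the solvent, or 5 nM copanlisib, and RNA was sequenced after 4, 8 or 12 h, with 3 libraries in each of the 6 groups. All groups are the same line, with no other line for comparison. Nothing in the labels says that the 3 libraries of a group came from separate cultures, so p-values measure the spread between libraries. The labels' extraction protocol speaks of retinas: the 12 retina markers together had 8.55 to 14 CPM (reads of a gene scaled to the size of its library), with 3 of 12 at 0 in all libraries, against 1449 to 2292 for 7 B cell markers, all of them detected. The B cell markers' sum was higher with copanlisib at each time (1588 to 1729 against 1449 to 1496 at 4 h, 2236 to 2292 against 1791 to 1823 at 12 h). T and NK cell markers summed to 12.1 to 19.7, myeloid markers to 4.69 to 11.4, and stromal and epithelial markers to 49.5 to 79.9. The stromal and epithelial sum was higher with copanlisib, without overlap, at 8 h (78 to 79.9 against 53.1 to 58.7) and at 12 h (74.4 to 78.7 against 49.5 to 54.7), and overlapped at 4 h (52.9 to 66.5 against 55.6 to 59.9). Of the stromal and epithelial markers, COL1A1 (12.5 to 27.9 CPM), KRT8 (12.3 to 20.8) and KRT18 (18.6 to 29.6) had the most reads. COL1A2, COL3A1 and KRT19 reached at most 0.0968, 0.102 and 0.0713 CPM, and EPCAM and PECAM1 2.83 and 1.68. The part of these markers in the results was not tested.

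Gene reads ranged from 13587017 to 25566761 per library. Among the libraries of copanlisib at 4 h, replicates 1 and 2 differed from the rest: 8.73% and 5.22% of their reads were unmapped against 1.74% to 2.82% in the other 16 libraries, and 12.4% and 12.6% of their gene reads were mitochondrial against 9.07% to 10.5%. In the 4 h comparison the median log2 fold change over all genes went from 0.12 in the 20% of genes lowest in GC content to -0.21 in the 20% highest in it. When replicate 3 alone stood for copanlisib at 4 h, those medians were -0.02 and 0.02. Of the 34 genes, 15 belong to the lowest 20% by GC content and 9 to the next 20%, so the counts at 4 h, and the value of each of the 34 genes called at 4 h, are given with all 3 libraries and with replicate 3 alone. In the second fit the single copanlisib library at 4 h is assumed to vary like those of the other groups. The part of these libraries' differences in the 4 h results was not tested.

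At 4 h of copanlisib 16 of the 34 genes (47.1%) rose and 4 fell (11.8%), where 17.7% of all genes tested rose and 20.7% fell. The median log2 fold change of the 34 was 0.20, against 0.01 over all genes tested. With replicate 3 alone, 5 of the 34 rose and 4 fell, where 10.4% of all genes rose and 13.1% fell, and the median was 0.08. The 5 were BARD1, BRIP1, RMI2, SLX4 and ATM, and the 4 were RBBP8, PALB2, RAD51D and ATR. At 8 h 4 of the 34 rose and 7 fell, close to the 14.8% and 18.3% of all genes, with a median of -0.05 against 0.02. At 12 h 1 gene rose, ATM, and 14 fell (41.2%), where 13.8% of all genes rose and 16.5% fell, and the median was -0.19 against 0.00. In the lowest 20% by GC content, 29% of all genes rose at 4 h and 9 of the 15 genes from the list did, while 21.7% of all genes fell at 12 h and 9 of the 15 did. The 3 comparisons use different libraries of both arms. In these bulk libraries fewer cells in a phase of the cycle and less RNA per cell cannot be told apart.

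**Figure D1:**
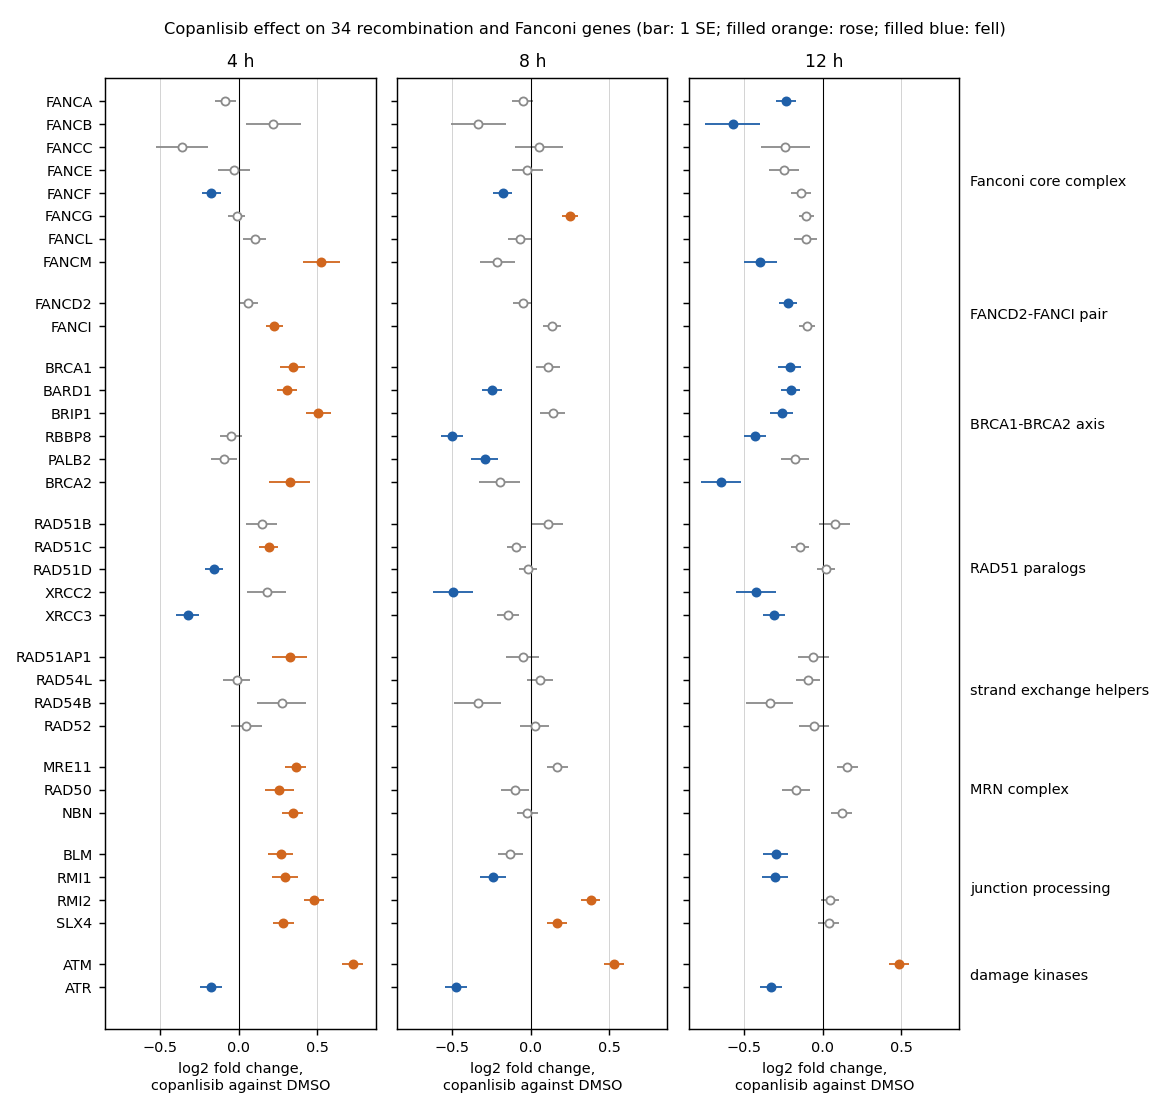
Log2 fold change of each of the 34 genes with copanlisib against DMSO at 4, 8 and 12 h (horizontal axis), ordered by role, with bars of 1 SE. Filled orange points rose and filled blue points fell at an adjusted p under 0.05, and open points did not pass. Orange points prevail at 4 h (16 genes) and blue points at 12 h (14 genes), and ATM stands on the right and ATR on the left at each time.

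The size of the drug effect itself differed between the 3 times in 16 of the 34 genes (edgeR F test over both differences), where 18.6% of all genes passed that test. In each of the 16 the effect at 12 h was below that at 4 h, by log2 differences of -0.09 (FANCG) to -0.97 (BRCA2). For NBN and FANCG that pair of times alone did not differ (edgeR F test, adjusted p = 0.106 and 0.427). Over the 3201 genes lowest in GC content the median effect also went down, from 0.12 at 4 h to -0.06 at 12 h. That of the 15 listed genes among them went from 0.31 to -0.30. With replicate 3 alone the 4 h median of the 3201 was -0.02. How many of all genes passing the F test over both differences went down was not counted. With replicate 3 alone at 4 h, 9 of the 34 passed, where 5.89% of all genes did, and all 9 are among the 16: FANCG, FANCM, FANCI, BRCA1, BARD1, BRIP1, BRCA2, RAD51C and RMI2. The 7 that no longer passed were FANCD2, RBBP8, XRCC2, RAD50, NBN, BLM and RMI1.

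Among the 8 genes of the Fanconi core complex, the ubiquitin ligase assembly of the pathway, 1 rose and 1 fell at 4 h and again at 8 h, and 3 fell at 12 h. None of the 8 passed at 4 h with replicate 3 alone. FANCM, the translocase that brings the complex to blocked forks, was called at 4 and at 12 h. FANCM had 8.43, 9.78 and 7.24 CPM in the DMSO libraries at 4 h and 13.2, 12.5 and 10.9 with copanlisib, a log2 fold change of 0.52 (SE 0.12, adjusted p = 8.52e-04). All 3 treated libraries were above the 3 controls, and with replicate 3 alone the value was 0.38 (adjusted p = 0.0586). At 12 h FANCM had 16.1, 16.8 and 14.3 with DMSO and 11.4, 10.03 and 14.1 with copanlisib, a log2 fold change of -0.40 (SE 0.11, adjusted p = 0.00607). Here every treated library was below every control, by a narrow margin for replicate 3 of each arm, and without copanlisib replicate 2 the gene did not pass (-0.30, adjusted p = 0.0539). The effect at 12 h minus that at 4 h was -0.92 (SE 0.16, adjusted p = 4.34e-04).

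FANCB, a scaffold subunit of the core complex, had 2.90, 3.16 and 2.70 CPM at 12 h with DMSO and 2.34, 1.57 and 1.92 with copanlisib, a log2 fold change of -0.57 (SE 0.18, adjusted p = 0.0146). The groups did not overlap, but the gene had few reads and did not pass without DMSO replicate 2 (-0.52, adjusted p = 0.0544) or copanlisib replicate 2 (-0.45, adjusted p = 0.0790). FANCA, the subunit most often mutated in Fanconi anemia, fell at 12 h, with a log2 fold change of -0.23 (adjusted p = 0.00640), and did not pass without DMSO replicate 2 (-0.18, adjusted p = 0.0609). FANCG, a scaffold that binds FANCA, was the 1 core gene that rose at 8 h: 44.1, 43.8 and 40.5 CPM with DMSO and 49.96, 51.4 and 51.7 with copanlisib, with no overlap and a log2 fold change of 0.25 (SE 0.05, adjusted p = 4.11e-04). At 4 h its log2 fold change was -0.01 (adjusted p = 0.875) and at 12 h -0.10 (adjusted p = 0.116). FANCF, an adaptor of the core complex, had 35.4, 33.9 and 35.5 against 31.1, 31.8 and 29.8 at 4 h, a log2 fold change of -0.18 (SE 0.06, adjusted p = 0.0246), and 37.4, 33.7 and 36.6 against 31.3, 31.6 and 32.4 at 8 h, a log2 fold change of -0.18 (SE 0.06, adjusted p = 0.0240). All treated libraries were lower at both times, and replicate 3 alone gave -0.21 (adjusted p = 0.0563) at 4 h. Its call at 4 h ended without DMSO replicate 1 (adjusted p = 0.0618) or 3 (adjusted p = 0.0708), and that at 8 h without DMSO replicate 1 (adjusted p = 0.128) or 3 (adjusted p = 0.0874) or copanlisib replicate 1 (adjusted p = 0.0733) or 2 (adjusted p = 0.0626). FANCC, FANCE and FANCL, the last of them the catalytic E3 ligase, passed at no time, with log2 fold changes from -0.36 (FANCC at 4 h) to 0.10 (FANCL at 4 h). FANCE passed at 12 h without DMSO replicate 3 (-0.29, adjusted p = 0.0452) or copanlisib replicate 1 (-0.30, adjusted p = 0.0389).

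FANCD2 and FANCI, the clamp that the core complex ubiquitinates, both had their lowest log2 fold change at 12 h. FANCD2 had 61, 62.7 and 62.7 CPM with DMSO and 53.9, 53.2 and 52.7 with copanlisib at 12 h, with no overlap and a log2 fold change of -0.22 (SE 0.06, adjusted p = 0.00384). At 4 and 8 h its values were 0.06 and -0.05, neither past the threshold. FANCI had 44.8, 44.7 and 43.4 with DMSO at 4 h and 53.3, 52.5 and 49.5 with copanlisib, with every treated library higher and a log2 fold change of 0.23 (SE 0.06, adjusted p = 0.00204). Replicate 3 alone gave 0.18 (adjusted p = 0.0599). At 8 h it had 0.13 (adjusted p = 0.0603) and passed without DMSO replicate 2 (0.20, adjusted p = 0.0121). At 12 h FANCI had 92.2, 91.4 and 87.5 against 86.3, 85.4 and 81.7, all treated libraries lower, which did not pass, at -0.10 (adjusted p = 0.164). FANCD2 has annotated pseudogene copies, so that its count, made without reads that map to several places, is uncertain.

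Of the 6 genes around BRCA1 and BRCA2, 4 rose and 0 fell at 4 h, and 0 rose and 5 fell at 12 h. With replicate 3 alone 2 rose and 2 fell at 4 h. BRIP1 (FANCJ), the helicase bound by BRCA1, was called upwards first and downwards last. Its identifier is ENSG00000136492.7, and it lies on chromosome 17 from 61681266 to 61863521 on the minus strand in GENCODE 29. BRIP1 had 12.8, 13.3 and 12.1 CPM with DMSO at 4 h and 18.9, 18.8 and 16.5 with copanlisib, so that every treated library was higher, with a log2 fold change of 0.51 (SE 0.08, adjusted p = 1.76e-05). With replicate 3 alone the value was 0.39 (adjusted p = 0.00630). At 8 h the arms overlapped, with 13.3, 14.9 and 13.8 against 15, 16.4 and 14.8 and a log2 fold change of 0.14 (adjusted p = 0.186). At 12 h BRIP1 had 25.3, 24.2 and 26.8 with DMSO and 21.2, 20.3 and 22.2 with copanlisib, now with every treated library lower, and a log2 fold change of -0.26 (SE 0.07, adjusted p = 0.00746). Without DMSO replicate 3 the 12 h value was -0.22, with an adjusted p of 0.0501. The effect at 12 h minus that at 4 h was -0.77 (SE 0.11, adjusted p = 4.82e-05).

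BRCA2, which delivers the recombinase to single-stranded DNA, had the lowest log2 fold change of the 34 genes at 12 h. It is ENSG00000139618.13 on chromosome 13 from 32315474 to 32400266 on the plus strand. BRCA2 had 22.4, 25.1 and 21.4 CPM with DMSO at 12 h and 16.1, 14 and 13.7 with copanlisib. Every treated library was below every control, and the log2 fold change was -0.65 (SE 0.13, adjusted p = 2.66e-04), which is 0.639 times the control level. At 4 h it had 15.2, 16.3 and 11.7 with DMSO and 21.3, 15 and 17.6 with copanlisib, 2 arms that overlapped. Its log2 fold change at 4 h, 0.32 (SE 0.13, adjusted p = 0.0498), lay at the threshold, and it did not pass without DMSO replicate 1 (adjusted p = 0.0639) or 3 (0.18, adjusted p = 0.330), without copanlisib replicate 1 (0.17, adjusted p = 0.340) or with replicate 3 alone, at 0.31 (adjusted p = 0.0950). The effect at 12 h minus that at 4 h was -0.97 (SE 0.18, adjusted p = 8.02e-04), and with replicate 3 alone at 4 h the effect still differed between the times (adjusted p = 4.17e-04).

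The promoters of BRIP1 and BRCA2, genes whose effect differed widely between 4 and 12 h, are shown as the 250 bases before the gene start, 5' to 3' on the gene's strand (RefSeq, GRCh38.p14). BRIP1 lies at chr17:61863529-61863778 on the minus strand and BRCA2 at chr13:32315258-32315507 on the plus strand. Capitals mark matches, on either strand, to CCAAT (a common promoter box), to TTTGAA (the CHR element of cell cycle genes) or to CACGTG (the E-box bound by MYC).
BRIP1: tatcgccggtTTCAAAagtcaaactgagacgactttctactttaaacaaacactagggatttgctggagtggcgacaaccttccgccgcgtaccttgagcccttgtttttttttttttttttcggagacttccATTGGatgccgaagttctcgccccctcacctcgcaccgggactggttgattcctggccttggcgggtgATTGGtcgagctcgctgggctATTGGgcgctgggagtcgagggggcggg
BRCA2: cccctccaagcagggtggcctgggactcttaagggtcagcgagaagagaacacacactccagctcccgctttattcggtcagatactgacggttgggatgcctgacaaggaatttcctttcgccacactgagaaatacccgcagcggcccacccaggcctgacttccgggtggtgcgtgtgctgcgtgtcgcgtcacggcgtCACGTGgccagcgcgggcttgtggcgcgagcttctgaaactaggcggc
BRIP1 has 3 CCAAT matches, all as ATTGG, and 1 TTTGAA match, while BRCA2 has 1 CACGTG match. A match is a string of letters and shows no binding.

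BARD1, the partner of BRCA1 in its ubiquitin ligase, had 25.6, 27.7 and 23.8 CPM with DMSO at 4 h and 32.1, 32.1 and 31.4 with copanlisib, all higher, with a log2 fold change of 0.31 (SE 0.07, adjusted p = 5.59e-04). Replicate 3 alone gave 0.30 (adjusted p = 0.00702). It was already lower at 8 h, with 29.7, 33.2 and 31.1 against 27.2, 25.8 and 26.3, no overlap and a log2 fold change of -0.24 (SE 0.06, adjusted p = 0.00429). At 12 h BARD1 had 47.2, 42.4 and 45.1 against 39.9, 38.5 and 38.7, again with no overlap, at -0.20 (SE 0.06, adjusted p = 0.0128), and did not pass without DMSO replicate 1 (-0.17, adjusted p = 0.0815). BRCA1 itself rose at 4 h, at 0.34 (adjusted p = 0.00120), with 23.8, 23.2 and 21.2 CPM against 31.1, 30.5 and 24.6, and treated replicate 3 lay just above the highest control. With replicate 3 alone its value at 4 h was 0.13 (adjusted p = 0.322). At 12 h BRCA1 had 40.2, 41.8 and 38.8 against 34.5, 35.3 and 34.7, with no overlap and a log2 fold change of -0.21 (SE 0.07, adjusted p = 0.0329). That call ended without DMSO replicate 1 (adjusted p = 0.0757) or 2 (adjusted p = 0.108) or copanlisib replicate 1 (adjusted p = 0.0822), 2 (adjusted p = 0.0610) or 3 (adjusted p = 0.0833).

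RBBP8 (CtIP), which with the MRE11 complex starts end resection, followed another course, and rose at no time. At 4 h it had 65.6, 65.3 and 65.5 CPM with DMSO and 69.4, 66.4 and 53.4 with copanlisib. Treated replicate 3 was the lowest of the 6 and the other two the highest, so the log2 fold change was -0.05 (adjusted p = 0.599) with all libraries and -0.27 (adjusted p = 0.00218) with replicate 3 alone. At 8 h RBBP8 had 69.5, 69.8 and 69.9 against 45.4, 51.5 and 50.5, with every treated library lower and a log2 fold change of -0.50 (SE 0.07, adjusted p = 2.65e-06), the lowest of the 34 genes at that time. At 12 h it had 85.4, 78.5 and 82.4 against 63.8, 60.01 and 59.3, again without overlap, and -0.43 (SE 0.07, adjusted p = 2.49e-05). Both later calls kept their side of the threshold whichever library was left out. PALB2, the bridge between BRCA1 and BRCA2, fell at 8 h, with 24.9, 28.2 and 25.7 against 21.1, 23 and 20.2 CPM, no overlap and a log2 fold change of -0.29 (SE 0.09, adjusted p = 0.00887). It did not pass without DMSO replicate 2 (-0.23, adjusted p = 0.0729) or copanlisib replicate 3 (-0.25, adjusted p = 0.0504), and at 4 h it fell with replicate 3 alone, at -0.33 (adjusted p = 0.00863). RBBP8, BRCA1, RAD51AP1, RAD52 and MRE11 have pseudogene copies, with the same limit as for FANCD2.

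**Figure D2:**
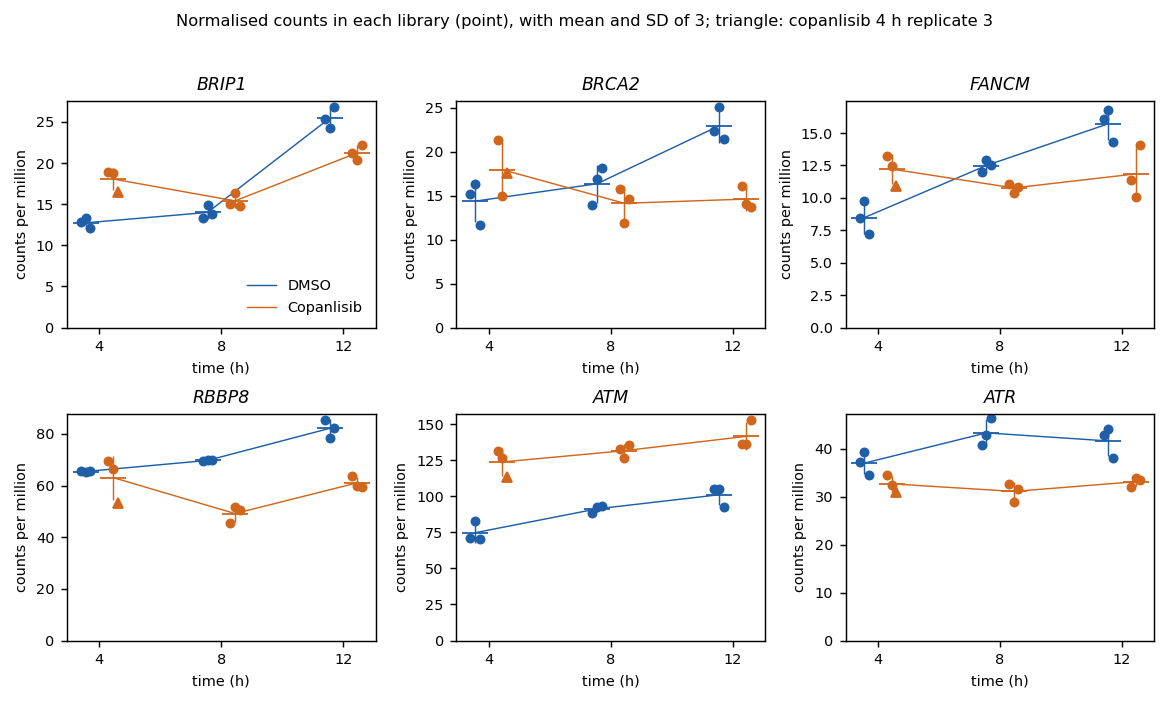
TMM-normalised CPM (vertical axis, from 0) of 6 genes in each of the 18 libraries by time in h, with DMSO in blue and copanlisib in orange. Points are libraries, the triangle is copanlisib 4 h replicate 3, and dashes with bars are the mean and SD of 3 libraries. BRIP1 and FANCM begin above and end below DMSO, RBBP8 drops below it from 8 h, ATM lies above DMSO at each time and ATR below.

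The 5 paralogs of the recombinase, which help to build and steady its filament, did not move as a group: 1 rose and 2 fell at 4 h (0 and 1 with replicate 3 alone), 1 fell at 8 h and 2 fell at 12 h. XRCC2 fell at 8 h, with 13, 14.7 and 14 CPM with DMSO and 9.82, 9.61 and 10.03 with copanlisib, no overlap and a log2 fold change of -0.49 (SE 0.13, adjusted p = 0.00352). At 12 h XRCC2 had 17.1, 14.5 and 14.2 against 12.2, 11 and 10.9, again with no overlap, at -0.42 (SE 0.13, adjusted p = 0.0121), and did not pass without DMSO replicate 1 (-0.33, adjusted p = 0.0876) or copanlisib replicate 3 (-0.39, adjusted p = 0.0544). At 4 h its treated libraries had 16.8, 17.7 and 11.3: replicate 3 was the lowest of the 6, and the log2 fold change was 0.18 (adjusted p = 0.271) with all and -0.24 (adjusted p = 0.194) with replicate 3 alone, while without copanlisib replicate 3 it passed (0.35, adjusted p = 0.00173). XRCC3, the partner of RAD51C, had 42.6, 43.6 and 42.9 with DMSO at 4 h and 31.6, 30.9 and 40.8 with copanlisib, all lower, with a log2 fold change of -0.33 (SE 0.07, adjusted p = 9.72e-04). Its treated replicate 3 lay near the controls, so replicate 3 alone gave -0.06 (adjusted p = 0.604). With an offset for GC content in the fit, XRCC3 at 4 h had -0.03 (adjusted p = 0.628), and XRCC3 has the highest GC content of the 34, at 63.8%. At 12 h XRCC3 had 58.2, 56.2 and 61.2 against 47.6, 45.8 and 48.2, with no overlap and a log2 fold change of -0.31 (SE 0.07, adjusted p = 0.00127), which passed without any single library but not in counts made without strand (-0.19, adjusted p = 0.101). RAD51D had 40.6, 36.4 and 37.5 against 34.7, 35.2 and 32.3 at 4 h, all lower, at -0.16 (SE 0.06, adjusted p = 0.0357), and -0.22 (adjusted p = 0.0401) with replicate 3 alone. RAD51D did not pass without DMSO replicate 1 (-0.12, adjusted p = 0.168) or copanlisib replicate 3 (-0.12, adjusted p = 0.0911), and 8.87% of its exon bases are shared with another gene on the same strand. RAD51C rose at 4 h, at 0.19 (adjusted p = 0.0154), and not with replicate 3 alone, at 0.21 (adjusted p = 0.0547). Its call also ended without DMSO replicate 3 (0.13, adjusted p = 0.135) or copanlisib replicate 1 (0.17, adjusted p = 0.0573). RAD51B passed at no time, with log2 fold changes of 0.14, 0.11 and 0.08.

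Of the 4 genes whose products act with the recombinase in strand pairing and annealing, 1 rose at 4 h and none passed at 8 or 12 h. That gene was RAD51AP1, with 13, 13.6 and 11.8 CPM with DMSO and 18.6, 16.6 and 12.6 with copanlisib, in arms that overlapped, at 0.32 (SE 0.11, adjusted p = 0.0201). Its treated replicate 3 was within the controls' range, and replicate 3 alone gave 0.00 (adjusted p = 0.996). The call also ended without DMSO replicate 3 (0.26, adjusted p = 0.118) or copanlisib replicate 1 (0.19, adjusted p = 0.191) or 2 (0.30, adjusted p = 0.0631). RAD54L and RAD54B, the motor proteins of strand exchange, had log2 fold changes from -0.34 (RAD54B at 8 h) to 0.27 (RAD54B at 4 h), and RAD52, the annealing protein, from -0.06 to 0.05. RAD54B passed at 4 h without copanlisib replicate 3 (0.44, adjusted p = 0.00536) and at 12 h without DMSO replicate 2 (-0.45, adjusted p = 0.0328) or copanlisib replicate 2 (-0.47, adjusted p = 0.0330). It shares 59.1% of its exon bases with another gene on the same strand, so that its count is uncertain.

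All 3 genes of the MRE11 complex, the sensor and nuclease at DNA ends, rose at 4 h, and 0 of 3 passed at 8 or 12 h. MRE11, the nuclease, had 59.5, 59.7 and 62.3 CPM with DMSO at 4 h and 83.4, 82.3 and 67.5 with copanlisib, all higher, at 0.36 (adjusted p = 1.22e-04). NBN, which binds ATM, had 130.1, 127 and 115 against 171, 165 and 135, all higher, at 0.34 (adjusted p = 1.72e-04). RAD50, the ATPase, had 97.7, 93.6 and 76.5 against 122, 103 and 94.5, with overlap, at 0.26 (adjusted p = 0.0265). In each of the 3 genes treated replicate 3 was the lowest of its group, and with replicate 3 alone the values were 0.18 (adjusted p = 0.0609), 0.14 (adjusted p = 0.0853) and 0.11 (adjusted p = 0.446), none past the threshold. The call of RAD50 also ended without DMSO replicate 3 (0.15, adjusted p = 0.236) or copanlisib replicate 1 (0.15, adjusted p = 0.223). MRE11 stayed above DMSO in every treated library at 8 and 12 h, with log2 fold changes of 0.17 (adjusted p = 0.0509) and 0.16 (adjusted p = 0.0799), and passed at 8 h without DMSO replicate 3 (0.21, adjusted p = 0.0347).

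The genes that process joined DNA molecules differed by time: 4 of 4 rose at 4 h, or 2 with replicate 3 alone, and at 12 h 2 fell and the other two did not pass. RMI2, an OB-fold subunit of the BLM complex, had 36.3, 31.9 and 32.2 CPM with DMSO at 4 h and 48.8, 47.4 and 42.9 with copanlisib, all higher, with a log2 fold change of 0.48 (SE 0.06, adjusted p = 9.91e-07), and 0.39 (adjusted p = 9.36e-05) with replicate 3 alone. At 8 h it had 41.2, 38.2 and 37.1 against 50.5, 51.3 and 50.6, all higher, at 0.38 (SE 0.06, adjusted p = 1.61e-05), and at 12 h 54.5, 52.5 and 55.1 against 56.6, 54.2 and 56.4, with overlap, at 0.05 (adjusted p = 0.610). RMI1, the other small subunit, had 18.6, 18.1 and 18.1 against 23.4, 24.3 and 19.2 at 4 h, all higher, at 0.29 (SE 0.08, adjusted p = 0.00602). Its treated replicate 3 was the lowest of the 3, and replicate 3 alone gave 0.09 (adjusted p = 0.565). RMI1 then fell below DMSO without overlap, with 18.2, 19.6 and 17.9 against 16.1, 16 and 15.1 at 8 h, a log2 fold change of -0.24 (adjusted p = 0.0286), and 21.5, 24 and 24.3 against 18.5, 17.8 and 20.3 at 12 h, of -0.30 (adjusted p = 0.00582). Its call at 8 h ended without DMSO replicate 1 (adjusted p = 0.0538) or 2 (adjusted p = 0.138) or copanlisib replicate 2 (adjusted p = 0.0519) or 3 (adjusted p = 0.0991).

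BLM, the helicase lost in Bloom syndrome, rose at 4 h, at 0.27 (adjusted p = 0.00900), but had 0.04 (adjusted p = 0.816) with replicate 3 alone, and did not pass without copanlisib replicate 2 (0.19, adjusted p = 0.0789). At 12 h it had 37.6, 38.1 and 37.6 CPM with DMSO and 28.7, 33.2 and 30.3 with copanlisib, with no overlap and a log2 fold change of -0.30 (SE 0.08, adjusted p = 0.00387), and passed without any single library. SLX4, the scaffold of several structure-cutting nucleases, rose at 4 h with 22.5, 23.6 and 22.5 against 26.8, 27.6 and 29.2, all higher, at 0.28 (adjusted p = 0.00149). Its treated replicate 3 was the highest, and replicate 3 alone gave 0.37 (adjusted p = 0.00125). At 8 h SLX4 had 0.17 (adjusted p = 0.0485), with overlapping arms, and did not pass without DMSO replicate 1 (0.13, adjusted p = 0.216) or 3 (0.19, adjusted p = 0.0608) or copanlisib replicate 1 (0.15, adjusted p = 0.135) or 3 (0.12, adjusted p = 0.216).

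The 2 kinases moved in opposite directions at each time: ATM rose 3 times and ATR fell 3 times. ATM (ENSG00000149311.16, chromosome 11 from 108222484 to 108369102, plus strand), the kinase of double-strand breaks, had the highest log2 fold change of the 34 at each time. ATM had 71, 82.5 and 70.5 CPM with DMSO at 4 h and 131, 126 and 113 with copanlisib, a log2 fold change of 0.73 (SE 0.07, adjusted p = 2.84e-09), or 1.65 times the control level. With replicate 3 alone it was 0.61 (adjusted p = 1.09e-09). At 8 h it had 88.4, 92.3 and 93 against 133, 126 and 135, at 0.53 (SE 0.07, adjusted p = 4.38e-07), and at 12 h 105, 105 and 92.8 against 136, 136 and 153, at 0.49 (SE 0.07, adjusted p = 1.72e-06). No treated library overlapped a control at any time, and the change of the effect over time did not pass (adjusted p = 0.127).

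ATR (ENSG00000175054.13, chromosome 3 from 142449235 to 142578826, minus strand), the kinase of stalled forks, had 37.2, 39.2 and 34.6 CPM with DMSO at 4 h and 34.5, 32.5 and 31 with copanlisib, a log2 fold change of -0.18 (SE 0.07, adjusted p = 0.0472). At 8 h it had 40.7, 42.9 and 46.3 against 32.7, 29 and 31.6, at -0.47 (SE 0.07, adjusted p = 5.68e-06), and at 12 h 42.8, 44 and 38 against 32, 33.9 and 33.5, at -0.33 (SE 0.07, adjusted p = 7.12e-04). Every treated library was lower at each time, by the least at 4 h, where replicate 3 alone gave -0.24 (adjusted p = 0.0459). The call at 4 h ended without DMSO replicate 1 (adjusted p = 0.0932) or 2 (adjusted p = 0.174) or copanlisib replicate 2 (adjusted p = 0.102) or 3 (adjusted p = 0.0790), and those at 8 and 12 h held without any single library. The change of the effect over time did not pass for ATR either (adjusted p = 0.0880).

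The promoters of these kinases, whose transcripts went opposite ways, are shown as the 250 bases before the RefSeq start, ATM at chr11:108222817-108223066 on the plus strand and ATR at chr3:142578734-142578983 on the minus strand. The RefSeq starts lie 583 (ATM) and 93 (ATR) bases inside the genes as GENCODE 29 places them, so the ATM stretch lies within that gene and the ATR stretch overlaps it. Capitals mark CCAAT and TTTGAA matches.
ATM: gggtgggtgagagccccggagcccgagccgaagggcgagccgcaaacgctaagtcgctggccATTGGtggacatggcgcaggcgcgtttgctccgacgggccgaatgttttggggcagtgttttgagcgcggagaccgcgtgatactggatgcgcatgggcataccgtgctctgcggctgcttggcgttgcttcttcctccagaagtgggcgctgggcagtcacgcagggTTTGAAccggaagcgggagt
ATR: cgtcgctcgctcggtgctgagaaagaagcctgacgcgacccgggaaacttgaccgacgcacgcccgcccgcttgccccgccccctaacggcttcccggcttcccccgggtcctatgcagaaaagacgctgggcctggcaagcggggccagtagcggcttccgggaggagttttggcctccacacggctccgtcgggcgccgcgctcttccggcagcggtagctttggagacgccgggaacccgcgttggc
In this stretch ATM has 1 match to each of the 2 motifs, and a second ATM window, with its RefSeq start 841 bases inside the gene, holds 2 CCAAT matches. No match to any of the motifs searched is in the 1 ATR window.

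**Figure D3:**
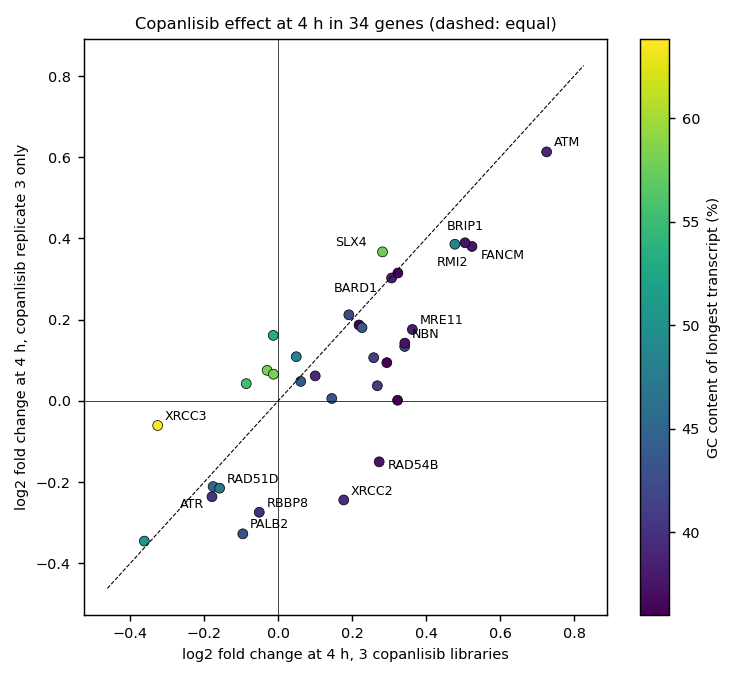
Log2 fold change of the 34 genes at 4 h with all 3 copanlisib libraries (horizontal axis) and with replicate 3 as the only one (vertical axis), coloured by the GC content of the longest transcript in percent. The dashed line marks equal values. ATM, FANCM, BRIP1, RMI2, BRCA2, BARD1 and SLX4 are high on both axes. MRE11, NBN, XRCC2 and RAD54B lie below the line, and XRCC3, with the highest GC content, lies above it.

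Levels of the 34 genes also drifted without drug, and mostly upwards. In DMSO cells 26 (76.5%) rose and 2 fell from 4 to 12 h, where 23.2% of all genes rose and 25.4% fell, with a median log2 change of 0.44 against -0.01 over all genes. Over the 3 DMSO times together 27 of the 34 differed, where 51.9% of all genes did. In copanlisib cells, 16 rose and 5 fell from 4 to 12 h, where 25.6% and 26.3% of all genes did, and the median was 0.15. When replicate 3 alone stood for the 4 h cells, 15 rose and 0 fell, where 19.7% and 19.8% of all genes did, and the median was 0.21. FANCI had 44.8, 44.7 and 43.4 CPM at 4 h with DMSO and 92.2, 91.4 and 87.5 at 12 h, a log2 change of 1.03 (SE 0.05, adjusted p = 5.79e-14), and 0.70 (SE 0.05, adjusted p = 3.60e-11) in copanlisib cells. FANCG had 41.4, 41.1 and 41.6 and 73.7, 72.3 and 74.5, a log2 change of 0.83 (SE 0.05, adjusted p = 1.03e-12) in DMSO and 0.74 (SE 0.05, adjusted p = 7.05e-12) in copanlisib cells. BRIP1 changed by 1.00 (SE 0.08, adjusted p = 8.25e-11) in DMSO and by 0.23 (SE 0.07, adjusted p = 0.0106) in copanlisib cells, and BARD1 by 0.80 (SE 0.06, adjusted p = 1.15e-10) and 0.29 (SE 0.06, adjusted p = 3.02e-04). From the single library of replicate 3 at 4 h, the changes in copanlisib cells were 0.77 (FANCI), 0.68 (FANCG), 0.37 (BRIP1) and 0.31 (BARD1), all past the threshold. In these 4 genes all DMSO libraries at 12 h were above all those at 4 h.

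RMI1 rose with time in DMSO, by a log2 change of 0.36, and fell in copanlisib cells, by -0.24 (-0.02 with replicate 3 alone at 4 h). With all libraries, RBBP8, BRCA2, RAD51C, RAD54B, RAD52, MRE11, RAD50, SLX4 and ATR rose in DMSO and did not pass in copanlisib cells. The test of the drug effect over the 3 times passed for RBBP8, BRCA2, RAD51C and RAD50. It did not pass for RAD54B, RAD52, MRE11, SLX4 and ATR, so no difference between the arms is read for them. From replicate 3 alone at 4 h, copanlisib cells changed by 0.19 (RBBP8), -0.27 (BRCA2), 0.11 (RAD51C), 0.41 (RAD54B) and 0.17 (RAD52). MRE11, RAD50, SLX4 and ATR changed by 0.29, 0.13, -0.12 and 0.09 there. FANCM and BLM also rose in DMSO and did not pass in copanlisib cells, with log2 changes of 0.88 in DMSO against -0.04 and 0.52 against -0.04. The effect of copanlisib at 12 h minus that at 4 h is the difference of these 2 drifts, and it passed for both genes, at -0.92 and -0.57. Taken from replicate 3 alone at 4 h, the changes in copanlisib cells were 0.12 (adjusted p = 0.524) and 0.20 (adjusted p = 0.0549), the differences of drifts were -0.77 and -0.34, and the test over the 3 times passed for FANCM (adjusted p = 0.0123) and not for BLM (adjusted p = 0.0795). PALB2 and FANCF fell in both arms, PALB2 by log2 changes of -0.29 in DMSO and -0.37 in copanlisib cells and FANCF by -0.22 and -0.17. Neither passed in copanlisib cells with replicate 3 alone at 4 h, at -0.12 (adjusted p = 0.352) and -0.12 (adjusted p = 0.260). The lower levels with copanlisib at 12 h were measured against DMSO levels that had risen since 4 h in 26 of the 34 genes.

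**Figure D4:**
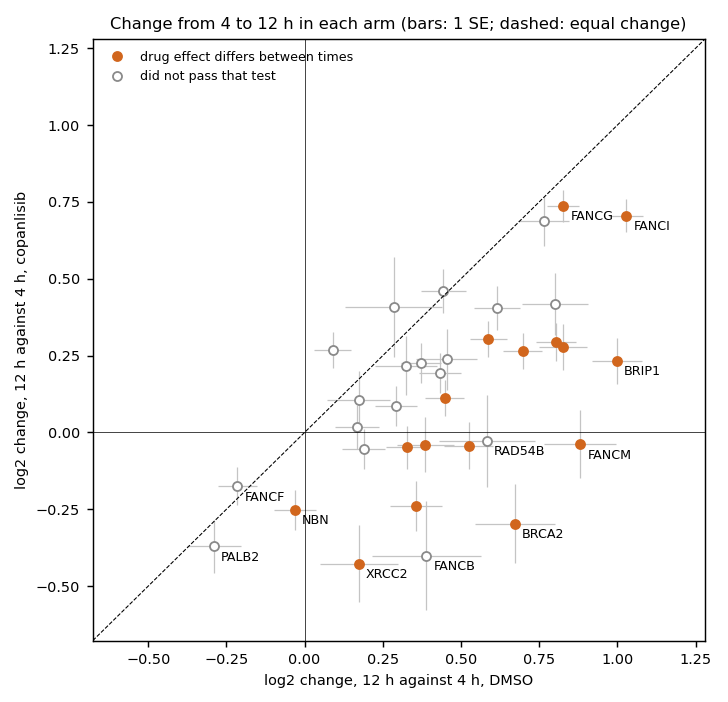
Log2 change from 4 to 12 h of the 34 genes in DMSO cells (horizontal axis) and in copanlisib cells (vertical axis), with bars of 1 SE and a dashed line of equal change. Filled orange points are the 16 genes whose drug effect differed between the 3 times. All 16 lie below the line, FANCG closest to it and BRCA2 and FANCM farthest.

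Further genes of these and neighbouring pathways, from lists chosen by function, were counted in the same fit. Of 40 tested genes among 43 other Fanconi and recombination genes, 14 rose and 6 fell at 4 h, 4 rose and 7 fell at 8 h, and 2 rose and 9 fell at 12 h, and with replicate 3 alone 5 rose and 3 fell at 4 h. Over all genes tested, 17.7% rose and 20.7% fell at 4 h (10.4% and 13.1% with replicate 3 alone), 14.8% and 18.3% at 8 h, and 13.8% and 16.5% at 12 h, and these shares apply to each list. CENPX, a histone-fold partner of FANCM, had log2 fold changes of -0.75 (adjusted p = 1.65e-05) at 4 h, -0.39 (adjusted p = 0.00924) there with replicate 3 alone, and -0.41 (adjusted p = 0.00387) at 12 h. WRN, a helicase of the same family as BLM, had -0.60 (adjusted p = 3.01e-08) at 8 h, and DNA2, a nuclease of long-range resection, -0.45 (adjusted p = 1.15e-05) at 12 h. SWSAP1, of the same list, rose at 8 h, at 0.31 (adjusted p = 0.0471). Of 23 damage signalling genes, 5 rose and 6 fell at 4 h (0 and 3 with replicate 3 alone), 1 rose and 9 fell at 8 h, and 0 rose and 9 fell at 12 h, among them SHLD2, a shieldin subunit that shields ends from resection, at -0.74 (adjusted p = 2.58e-07) at 8 h. Of 14 end joining genes, which repair breaks without a template, 1 rose and 2 fell at 4 h (2 and 2 with replicate 3 alone), 1 rose and 5 fell at 8 h, and 0 rose and 5 fell at 12 h. PRKDC, the DNA-dependent protein kinase, had -0.33 (adjusted p = 1.70e-06) at 8 h and -0.29 (adjusted p = 1.86e-05) at 12 h. At 4 h DCLRE1C, of the same list, rose, at 0.61 (adjusted p = 1.06e-05), or 0.43 with replicate 3 alone. PAXX fell there, at -0.61 (adjusted p = 4.88e-05), and had -0.21 with replicate 3 alone, which did not pass.

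Cell cycle lists gave the background for these levels. Of 28 G1-S genes, whose transcripts rise before DNA replication, 27 rose in DMSO cells from 4 to 12 h, with a median log2 change of 0.54, and 18 rose in copanlisib cells, with 0.24 (15 and 0.26 with replicate 3 alone at 4 h). With copanlisib 6 of the 28 rose and 3 fell at 4 h (4 and 2 with replicate 3 alone), 3 rose and 7 fell at 8 h, and 0 rose and 18 fell at 12 h, when the median was -0.24. CDC6, an origin licensing factor, had -0.47 (adjusted p = 1.74e-06) at 12 h. Of 20 G2-M genes, whose transcripts peak before division, 12 rose and 0 fell at 4 h, 1 rose and 2 fell at 8 h, and 0 rose and 1 fell at 12 h, with 8 rising and 0 falling at 4 h with replicate 3 alone. The part of cell cycle phase in the changes of the 34 genes was not tested. Of 19 p53 targets, 8 rose and 6 fell at 4 h (4 and 3 with replicate 3 alone), 5 rose and 2 fell at 8 h, and 4 rose and 4 fell at 12 h. Their log2 fold changes at 4 h went from -0.55 to 0.66. The 2 farthest from 0 at 4 h were SESN1, at 0.66 (adjusted p = 8.27e-07) and 0.58 (adjusted p = 1.51e-04) with replicate 3 alone, and RRM2B, at 0.55 (adjusted p = 1.05e-08) and 0.42 (adjusted p = 3.88e-08).

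Per kilobase of exon the 34 genes spanned a wide range of levels. By the mean over the 18 libraries NBN was highest, at 21.1 CPM per kilobase (18.6 to 27.7), followed by FANCL (15.6), FANCG (14.7), RMI2 and RBBP8 (12.8 each). FANCC (0.392), FANCB (0.647), BRCA2 (1.36) and FANCM (1.41) were lowest. Lengths are the union of all annotated exons of a gene, 12809 bases for FANCC and 3593 for FANCB. Without division by length, FANCC had more CPM than FANCB in every group (means of 4.90 and 2.21 with DMSO at 4 h). That order did not hold in each group: with DMSO at 12 h the means of FANCG (20.3) and FANCL (19.8) were above that of NBN (19.7). The library ranges of neighbours overlap all along these 5 highest genes, and those of FANCC and FANCB, of BRCA2 and FANCM and of FANCM and RAD51B overlap too, so that no order is read between them. The low level of FANCC and FANCB goes with a large SE, 0.15 to 0.18 on the log2 scale, against 0.05 for FANCG.

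RefSeq promoter windows, from 250 bases before to 50 after the RefSeq start, were at hand for 30 of the 34 genes, in 40 windows. FANCI, RAD54B, NBN and RMI2 had none. CCAAT was in 15 of the 40 windows (37.5%), against 34.6% of all 35116 windows. E2F motifs (TTTCCCGC, TTTGGCGC, TTTCGCGC or TTTGCCGC) were in 5 windows (12.5%), those of FANCA, FANCC, FANCD2, RMI1 and XRCC2, against 3.31% of all. TTTGAA was in 3 windows (7.5%) against 15.2%, CACGTG in 3 (7.5%), those of BRCA2, FANCC and RAD50, against 7.26%, and GTAAACA, a FOXO motif, in 0 against 3.42%. Both strands were searched, and windows of the same gene can overlap.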

How the data were processed

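RNA sequencing covered 18 libraries of HAIR-M, grouped by treatment, time and replicate as the labels give them. The authors deposited raw read counts per gene and library, not normalized; CASAVA 1.7, STAR 2.5.2b and the build hg38 are named in the submitters' processing notes. No source used here gives the annotation version. Identifiers were named from a gene name table (56321) or GENCODE 29 (432), which left 3730 without a name. Multimapping reads are in no gene's count, and 4 summary rows (unmapped, multimapping, no feature, ambiguous) were left out, with no-feature reads at 10.02% to 13%. Per the labels the kit was not a stranded one, but 94.3% to 95.3% of reads were in 1 strand column, which was used.

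Genes were kept by edgeR's filterByExpr, counts were scaled by TMM, and a model with a mean for each group was fitted to the 18 libraries together in edgeR 4.0.16 (R 4.3.3, glmQLFit and glmQLFTest, two-sided). The Benjamini-Hochberg adjustment ran over the 16122 genes tested, with 0.05 as the threshold, and the spread was small (common biological coefficient of variation 0.0500). "Rose" and "fell" mean past that threshold, CPM use TMM-scaled library sizes, and SE is the log2 fold change over the square root of F. GC content was known for 99.3% of genes tested. Alternatives used DESeq2 1.42.0, limma 3.58.1 and other filters, counts and library sets. Replicates differed by more than sampling noise (chi-square per gene 1.52 to 2.94, and 15.8 and 19.9 for copanlisib 4 h replicate 3 against replicates 1 and 2), so none was counted as a duplicate. The scripts were tested on simulated data.

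The 34 genes, the other lists and the tests were chosen with earlier results of these data known. Values in every library are given for the genes with the 4 highest and 4 lowest called, non-overlapping changes at each time and the 4 with the smallest adjusted p over time, and for others of each role; of the other lists, for some of the 2 genes that changed most. The result of 1 other list is not reported here.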

Additional observations from a re-analysis of the deposited data

Results flagged for a closer look

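For 16 of the 34 genes the effect of copanlisib differed between 4, 8 and 12 h (edgeR F test, adjusted over all genes tested). The values are log2 effects at 12 h minus those at 4 h. They were largest in size for BRCA2 (-0.97), FANCM (-0.92) and BRIP1 (-0.77), which were called higher than DMSO at 4 h and lower at 12 h. For BRCA2 the arms overlapped at 4 h, and its call there lay at the threshold (edgeR F test, adjusted p = 0.0498). XRCC2 (-0.60), RMI1 (-0.60), BLM (-0.57), BRCA1 (-0.55) and BARD1 (-0.51) came next in size. Smaller differences were measured for RMI2 (-0.43), RAD50 (-0.43), RBBP8 (-0.38), RAD51C (-0.34), FANCI (-0.32) and FANCD2 (-0.28). For NBN (-0.22) and FANCG (-0.091) the 12 h effect did not differ from that at 4 h by the test of that pair alone (adjusted p = 0.106 and 0.427). NBN was lowest at 8 h (-0.02) and FANCG highest at 8 h (0.25). With replicate 3 as the only copanlisib library at 4 h, 9 of the 16 passed the test over the 3 times. The 7 that did not had 12 h minus 4 h values of -0.40 (RMI1), -0.34 (BLM), -0.27 (RAD50), -0.27 (FANCD2), -0.18 (XRCC2), -0.15 (RBBP8) and -0.02 (NBN). Of those that passed, BRCA1 moved by over 1.5 times in size, to -0.34, and FANCG to -0.17, and BRCA2 (-0.96), FANCM (-0.77) and BRIP1 (-0.65) had the largest values of the 16 here too.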

How the results depend on the processing

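Over the alternatives run, the log2 fold change of FANCG at 4 h, not past the threshold in the tests as reported, turned positive and passed under the GC offset without the block (0.13) and with it (0.13). Counts of genes that moved by over 1.5 times were as follows. Genes that fell at 4 h numbered 1 with no filter on low counts, with counts without strand, with only the 6 libraries of the time and at an adjusted p under 0.01, and 1 to 4 when 1 library was left out: 1 without DMSO replicate 1 and 2 without copanlisib replicate 3. Genes that rose at 4 h numbered 10 with only the 6 libraries of the time and 5 when replicate 3 alone stood for copanlisib. Genes that rose numbered 7 at 8 h and 3 at 12 h under the GC offset with or without the block, and 3 at 12 h with only the 6 libraries of that time. Genes whose effect differed over time numbered 9 with replicate 3 alone at 4 h. Over all 16122 genes tested, 2860 rose and 3335 fell at 4 h as reported. Called in either direction were 3684 with only the 6 libraries and 4263 at an adjusted p under 0.01. Without the filter 5739 of 35239 were called, and without strand 6043 of 16924. At 8 h 2392 rose and 2944 fell, and 6190 were called under the GC offset without the block. At 12 h 2218 rose and 2664 fell, and 5898 were called under that offset and 6267 with only the 6 libraries. The cause of these differences was not tested.

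Same-numbered libraries of the arms deviated together with correlations of -0.03 to 0.10, and differently numbered ones with -0.08 to 0.05. These values give no clear sign of pairing by number, but with 3 libraries in a group they cannot exclude it. With the replicate block 15 genes rose and 3 fell at 4 h, 3 rose and 7 fell at 8 h, 1 rose and 14 fell at 12 h, and 16 differed over time. Beside those that ended when 1 library was left out or with replicate 3 alone, given with each gene, and the 14 that ended at an adjusted p under 0.01, single calls ended as follows. BRCA2 at 4 h ended with DESeq2, DESeq2's size factors, limma-voom, the block, the GC offset and only the 6 libraries of the time. ATR at 4 h ended with limma-voom, the block, no filter, counts without strand and only the 6 libraries. With DESeq2 FANCF, RMI1 and SLX4 at 8 h and FANCB at 12 h ended too, and with the block SLX4 at 8 h. With no filter FANCF, RAD51C and RAD51D at 4 h and FANCF, RMI1 and SLX4 at 8 h ended, and with only the 6 libraries FANCF, RAD51C, RAD51D, RAD51AP1, RAD50, BLM and RMI1 at 4 h. With counts without strand they were FANCF and RAD51D at 4 h, FANCF at 8 h and XRCC3 at 12 h. With the GC offset, with or without the block, they were RAD51C, XRCC3, RAD51AP1 and RAD50 at 4 h, BARD1, RMI1 and SLX4 at 8 h and BARD1 at 12 h. Depth limits FANCB and FANCC, with under 8 CPM in every library.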
